A study of Mus musculus with 2 samples.

Results

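Chemokines are small secreted proteins that guide leukocytes and progenitors through G protein-coupled receptors, and the homeostatic ones are made without an inflammatory stimulus by stromal and endothelial cells to place cells within a tissue. CXCL12 holds CXCR4-bearing leukocytes and progenitors in their niches, CXCL13 draws B cells that carry CXCR5, and CXCL16 is a membrane-bound ligand of CXCR6 that sheddases can release. CX3CR1, the receptor of fractalkine, is carried by monocytes and many tissue macrophages, and CCL11 is an eotaxin that acts through CCR3. The homeostatic set examined here comprised 8 genes of the 24984 measured, matched by symbol, and all 8 were found in both libraries: the ligands Cxcl12, Cxcl13, Cxcl14, Ccl11 and Cxcl16 and the receptors Cxcr4, Cxcr6 and Cx3cr1.

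The data were droplet-based single cell RNA-seq libraries of live mononuclear cells isolated from the hind limb muscles of dystrophin-deficient mdx mice, with 1 library per group and mice pooled within a group. Ctrl mice were Pax7CreERT2/R26YFP; Yy1+/+; mdx and dKO mice were Pax7CreERT2/R26YFP; Yy1 f/f; mdx. Mice of both groups were given tamoxifen when young and sampled a month later, and the labels give no other treatment, so the Cre driver, the YFP reporter, the mdx background and tamoxifen were common to both, and Cre activity was limited by the Pax7 promoter to muscle stem cells (MuSCs) and their progeny. With a single library per group there was no replicate check and no test. Levels are in CPM, the UMIs (unique molecular identifiers, 1 per captured transcript) of a gene per 1000000 UMIs of a cell class, ranges in parentheses are 95% exact intervals that cover counting error only, and a gene was called higher or lower when dKO and Ctrl differed by at least 1.5-fold with at least 100 UMIs over both libraries.

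After filtering, 4010 Ctrl and 3079 dKO cells were kept, with a median of 7807 and 7852 UMIs per cell. The 25 clusters were assigned to 16 cell classes by marker lists, each called "-like" because its name rests on marker transcripts alone. The largest were monocyte/macrophage (MO/MP)-like cells (1420 Ctrl and 1124 dKO), fibro-adipogenic progenitor (FAP)-like cells (1078 and 1139) and endothelial cell (EC)-like cells (471 and 181). Yy1, the deleted gene, gave 402 UMIs in Ctrl and 3 in dKO MuSC-like cells, and its ratio in the MO/MP-like, FAP-like and EC-like classes lay between 1.00 and 1.09. Median depth was 11741 and 11873 UMIs per FAP-like cell, 7722 and 6830.5 per MO/MP-like cell and 2317.5 and 2556 per B cell-like cell. The libraries shared 6 cell barcodes among kept cells. The myocyte-like class also carried macrophage markers and is given only in the plot of levels.

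Members fell into stromal, myeloid and lymphoid patterns. FAP-like cells held 97.4% of Ctrl and 99.7% of dKO Cxcl13 UMIs, 92.4% and 95.2% of Cxcl14, 93.9% and 95.9% of Ccl11, and 55.3% and 80.7% of Cxcl12. With no cells removed as likely doublets, the Ctrl share of Cxcl13 was 36.1%. MO/MP-like cells held 73.1% and 69.0% of Cxcl16, 78.0% and 82.6% of Cxcr4, and 82.9% and 66.4% of Cx3cr1. T cell-like cells, which were 2.92% of the Ctrl library and 4.45% of the dKO library, held 83.0% and 94.9% of Cxcr6. Of 128 pairs of a member and a class, 29 had at least 100 UMIs; 4 of these were called higher and 6 lower in dKO, in classes where between 5.78% and 23.8% of all genes with 100 UMIs were called either way.

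**Figure D1:**
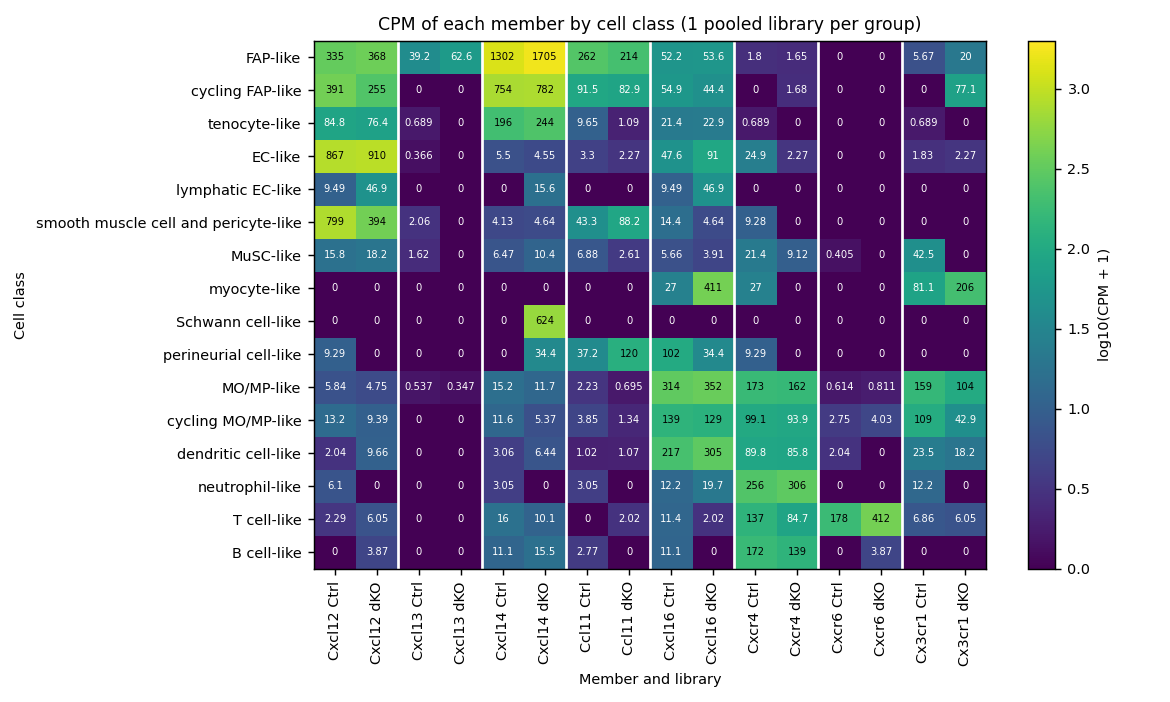
Level of each member (columns, Ctrl and dKO beside each other) in each cell class (rows), printed as CPM and coloured by log10 of that value plus 1. Cxcl13, Cxcl14 and Ccl11 were concentrated in FAP-like rows, Cxcr6 in the T cell-like row, and Cxcl12 was highest in the EC-like and, in Ctrl, the smooth muscle cell and pericyte-like rows.

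Positions are RefSeq gene bounds on GRCm38. Cxcl12 is on chromosome 6 (117168535 to 117181368, plus strand), Cxcl13 on chromosome 5 (95956939 to 95961068, plus) and Cxcl14 on chromosome 13 (56288643 to 56296811, minus). Cxcl16 (70454389 to 70459984, minus) and Ccl11 (82057832 to 82062955, plus) are both on chromosome 11, and Cxcr6 (123806477 to 123811754, plus) and Cx3cr1 (120048683 to 120068296, minus) are both on chromosome 9. Cxcr4 is on chromosome 1 (128588199 to 128592299, minus). The 250 bases before the RefSeq start (GRCm38.p6) are shown for Cxcl12, Cxcl13 and Cxcl14, the stromal CXC ligands that the FAP-like sub-clusters split, as chr6:117168285-117168534 (plus), chr5:95956689-95956938 (plus) and chr13:56296552-56296801 (minus), each 5′ to 3′ with any TATAAA in capitals. The start used for Cxcl14 lies inside its outermost gene bounds.
Cxcl12: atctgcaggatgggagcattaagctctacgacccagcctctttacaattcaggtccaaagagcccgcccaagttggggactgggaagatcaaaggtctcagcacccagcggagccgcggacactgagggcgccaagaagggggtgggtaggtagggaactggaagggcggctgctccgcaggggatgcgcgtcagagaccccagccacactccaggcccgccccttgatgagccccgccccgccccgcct
Cxcl13: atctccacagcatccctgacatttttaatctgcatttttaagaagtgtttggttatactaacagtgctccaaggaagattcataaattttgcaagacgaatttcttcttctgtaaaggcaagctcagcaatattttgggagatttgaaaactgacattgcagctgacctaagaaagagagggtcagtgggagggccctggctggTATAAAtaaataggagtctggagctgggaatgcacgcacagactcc
Cxcl14: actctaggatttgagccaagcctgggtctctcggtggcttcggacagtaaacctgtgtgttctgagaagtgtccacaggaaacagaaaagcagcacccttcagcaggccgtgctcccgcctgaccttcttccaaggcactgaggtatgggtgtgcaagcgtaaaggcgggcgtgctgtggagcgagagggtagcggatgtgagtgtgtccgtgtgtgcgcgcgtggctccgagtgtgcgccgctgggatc
The window of Cxcl13 held TATAAA, its first base 46 bases before the start, and those of Cxcl12 and Cxcl14 did not. Of the 32851 promoters in the table, 7.59% held TATAAA on the gene's strand in the same window. Of the 6 members with a promoter in the table, the other match was in Cxcr4, 30 bases before its start. None of the 6 windows held CCATNTT (core of YY1 sites) or ACGTG (hypoxia response elements) on either strand, which were present in 12.4% and 16.6% of promoters.

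Cxcl12 was counted in endothelial, mural and FAP-like cells, and its level over the EC-like and FAP-like classes was close in both libraries. In EC-like cells it stood at 867 (832 to 902) CPM in Ctrl and 909.6 (848 to 974.9) in dKO, a ratio of 1.05 (0.967 to 1.14). In FAP-like cells it stood at 335 (325 to 344) and 368 (359 to 378), a ratio of 1.10 (1.06 to 1.14). Neither ratio reached the 1.5-fold call. Cycling FAP-like cells, described further on, stood at 391 and 255, and tenocyte-like cells at 84.8 (70.4 to 101) and 76.4 (59.6 to 96.5), and B cell-like cells, fixed as a class that should lack the gene, had 0 and 1 UMIs.

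The near equality of the EC-like class covered unlike sub-clusters. Capillary-like cells formed a pair of sub-clusters, and in the first Cxcl12 had 941 UMIs in 153 Ctrl cells and 382 in 52 dKO cells, or 1463 (1371 to 1560) and 2285 (2061 to 2526) CPM, a ratio of 1.56 (1.38 to 1.76). The second was at 1136 (1072 to 1204) and 1810 (1626 to 2010), a ratio of 1.59 (1.41 to 1.80), with 15.95% of its dKO UMIs in 1 cell and a ratio of 1.46 (1.27 to 1.66), short of a call, without the top cell of each library. Both were called higher in dKO, where 12.6% and 17% of all genes that reached the floor were called. Venous-like cells were called lower, 1 of 2 members against 12.3% of all genes, at 253 (219 to 290.1) against 140.2 (103 to 186) CPM, a ratio of 0.555 (0.396 to 0.764), and arterial-like cells stood at 276 (219 to 344) against 108 (65.0 to 169), a ratio of 0.391 (0.224 to 0.651) on 80 and 19 UMIs, under the floor for a call. Capillary-like cells were 302 of 471 EC-like cells in Ctrl and 100 of 181 in dKO, and the part of that composition in the class ratio was not tested. Without integration of the libraries the ratios were 1.63 (1.49 to 1.77) over all capillary-like cells and 0.607 (0.446 to 0.814) in venous-like cells.

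**Figure D2:**
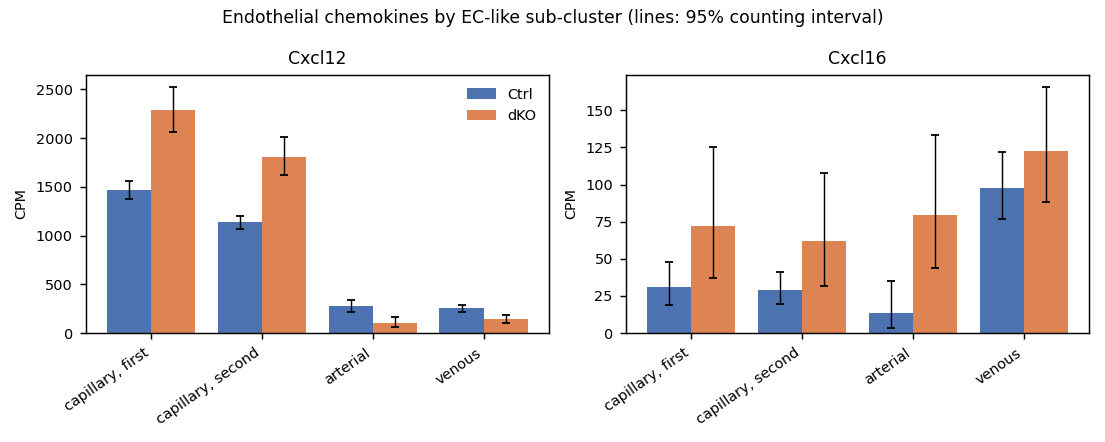
CPM of Cxcl12 (left) and Cxcl16 (right) in the 4 EC-like sub-clusters, Ctrl beside dKO, with 95% counting intervals. Cxcl12 was highest in the capillary-like bars, where dKO stood above Ctrl, and dKO stood below Ctrl in the venous-like and arterial-like bars, whereas every dKO bar of Cxcl16 stood above its Ctrl bar.

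Smooth muscle cell and pericyte-like cells had less Cxcl12 in dKO, 775 UMIs in 121 Ctrl cells and 85 in 35 dKO cells, or 799 (744 to 858) against 394 (315 to 488) CPM, a ratio of 0.494 (0.390 to 0.618). This was the only member with 100 UMIs in the class, where 23.8% of all genes that reached the floor were called. A single dKO cell held 42.4% of the dKO UMIs, and without the top cell of each library the ratio was 0.329, while it was 0.790 with the likely doublets kept in. The summed smooth muscle cell and pericyte list (10 genes, 0 at 0) was at 27171 CPM in Ctrl and 31558 in dKO. Of single markers, the pericyte gene Rgs5 was at 8900.1 and 2297 CPM, Kcnj8 at 364 and 199.6, and Abcc9 at 630.1 and 227, while the smooth muscle marker Myh11 was at 3170.2 and 3601. The summed EC marker list (11 genes) was at 2899 and 1188 CPM in the class, with 0 and 1 of its genes at 0. The part of these cells in the Cxcl12 ratio was not tested.

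Cycling FAP-like cells also had less Cxcl12 in dKO, 391 (357 to 426) against 255 (228 to 286) CPM, a ratio of 0.654 (0.566 to 0.755) on 41 and 35 cells. It was 1 of 4 members called in that class, against 15% of all genes that reached the floor. Pdgfra, the FAP marker, had a ratio of 0.860 (0.714 to 1.03) in the same cells. The summed FAP list (11 genes, 1 and 0 at 0) was at 25042 and 19484 CPM, the EC list (11 genes, 0 and 5 at 0) at 146 and 9.21, and the smooth muscle cell and pericyte list (10 genes, 3 and 4 at 0) at 510.3 and 215. Their part in the Cxcl12 ratio was not tested.

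Among FAP-like cells, 2 of 6 members with at least 100 UMIs were called, both higher in dKO (Cxcl13 and Cx3cr1), against 5.78% of 10218 genes called either way and 2.66% called higher. The median log2 ratio of the 6 was 0.26, against −0.06 over all genes that reached the floor. The summed FAP list (11 genes, 0 at 0) was at 44464 and 41311 CPM in the class, the dendritic cell list (10 genes, 0 and 3 at 0) at 359 and 635, the MO/MP list (12 genes, 0 at 0) at 77.9 and 60.5 and the neutrophil list (9 genes, 0 and 1 at 0) at 40.8 and 7.64, and their part in the calls was not tested. Cxcl14, a chemokine made by fibroblasts and epithelia, was at 1302 (1284 to 1321) CPM in Ctrl and 1705 (1684 to 1726) in dKO, a ratio of 1.31 (1.28 to 1.33) that was under the 1.5-fold call. It was found in 74.3% and 74.5% of cells, and at 2000 UMIs per cell the shares differed by 2.54 percentage points (−1.76 to 6.84). Over all kept cells Cxcl14 was at 501 and 892 CPM and was called higher, and FAP-like cells made up 26.9% of the Ctrl cells and 37.0% of the dKO cells. All kept cells had 3 of 8 members called, each higher (Cxcl13, Cxcl14 and Cxcr6), against 10.3% of 12571 genes called either way and 3.33% called higher.

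Outside FAP-like cells, Cxcl14 was detected in tenocyte-like cells at 196 (174 to 221) and 244 (214 to 279) CPM, where neither it nor Cxcl12 was called and 6.02% of all genes were. In MO/MP-like cells thinned to 2000 UMIs each, 2.44% and 2.37% had a Cxcl14 UMI, no more than the 3.09% and 2.82% of thinned B cell-like cells, the class taken as background. Unthinned, 2 Ctrl cells held 24 of 198 MO/MP-like UMIs and 1 dKO cell held 25 of 101.

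Cxcl13, a B cell attractant of lymphoid follicles, was found in a minority of FAP-like cells. Only 49 of 1078 Ctrl and 66 of 1139 dKO cells held a UMI, and 16 Ctrl cells and 19 dKO cells with 10 or more UMIs carried 85.4% and 85.9% of the total. Its level was 39.2 (36.1 to 42.6) and 62.6 (58.7 to 66.8) CPM, a ratio of 1.60 (1.44 to 1.77), and it was called higher. The share of cells with a UMI was 4.55% and 5.79%, and B cell-like cells, which should lack it, had 0 UMIs in both libraries, which allows a share of cells with a UMI of up to 2.11% and 3.45%. The ratio was 1.47 without the top cell of each library and 1.13 as a mean of each cell's own level, both short of 1.5-fold.

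The FAP-like sub-clusters split these ligands. Pi16 and Dpp4 mark a fibroblast population known from fascia and the surroundings of vessels, and the sub-cluster they marked (130 Ctrl and 147 dKO cells) had 373 (339 to 409) CPM of Cxcl13 in Ctrl and 261 (236 to 288) in dKO. The other FAP-like cells were at 9.63 and 39.9, so that the sub-cluster stood 38.7-fold (31.7 to 47.5) above them in Ctrl and 6.54-fold (5.74 to 7.45) in dKO. Without integration of the libraries the Ctrl value was 76.0-fold. Cxcl14 ran the other way, at 50.8 and 53.1 CPM in the Pi16+ Dpp4+ sub-cluster against 1413 and 1895 elsewhere, or 27.8-fold and 35.7-fold lower. Cxcl12 was also lower there, with sub-cluster to remainder ratios of 0.495 (0.428 to 0.569) and 0.466 (0.412 to 0.526), whereas Ccl11 was at 271 and 279 CPM against 261 and 206. The members and the pathway genes had been left out of the genes used for clustering.

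In other sub-clusters single cells held much of the count. The shallow Fmo2+ Gdf10+ sub-cluster, with a median of 2189.5 UMIs per cell, was called lower for Cxcl12 at 1020 and 441 CPM and higher for Cxcl14 at 1352 and 2262, 2 of 2 members against 15% of all genes. Its Cxcl14 ratio of 1.67 was 1.42 under another numerical kernel and 1.38 without integration, both short of a call. A single Ctrl cell held 72.5% of those Ctrl Cxcl12 UMIs, and without the top cell of each library the Cxcl12 ratio was 0.953 (0.693 to 1.31), no longer called. A small Unc13c+ Tenm2+ sub-cluster of 12 Ctrl and 10 dKO cells was called higher for Cxcl14 at 2635 and 9458, where 37.1% of all genes were called, with 61.9% and 47.7% of the UMIs in 1 cell of each library.

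Detection of both ligands in the same single cells was counted by sub-cluster, and it largely followed the Cxcl14 of each sub-cluster. Of 21 Ctrl and 27 dKO cells of the Pi16+ Dpp4+ sub-cluster with 3 or more Cxcl13 UMIs, 1 and 2 had a Cxcl14 UMI, while 17 and 23 had a Cxcl12 UMI. Cells of the sub-cluster without Cxcl13 also seldom had Cxcl14, in 12.4% and 18.5%. In the G0s2+ Ifit3+ sub-cluster all 3 Ctrl and both dKO cells with 3 or more Cxcl13 UMIs had Cxcl14, against 88.2% and 88.3% of cells without Cxcl13. In the Clu+ Zfp36+ sub-cluster 1 of 1 Ctrl and 4 of 6 dKO cells had it, against 87.2% and 85.6%, and in the dKO cells of the Cxcl5+ Il1rl1+ sub-cluster 4 of 4 did, against 84.0%. In the Fmo2+ Gdf10+ sub-cluster it was 0 of 1 and 1 of 1 cells, against 54.0% and 58.1%. The Unc13c+ Tenm2+ sub-cluster had no cell with 3 or more Cxcl13 UMIs, and 3 of 11 Ctrl and 5 of 10 dKO cells without Cxcl13 had Cxcl14.

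The higher Cxcl13 of dKO FAP-like cells lay outside the Pi16+ Dpp4+ sub-cluster. In that sub-cluster 25.4% and 26.5% of cells had a UMI, and the ratio was 0.700 (0.611 to 0.803), below 1. In the Clu+ Zfp36+ sub-cluster, led by stress-response genes, Cxcl13 had 30 UMIs in 4 of 269 Ctrl cells and 272 in 8 of 335 dKO cells, a ratio of 7.84 (5.37 to 11.9), and 1 dKO cell held 222 of them. In the Cxcl5+ Il1rl1+ sub-cluster it had 3 UMIs in 3 of 233 Ctrl cells and 226 in 10 of 279 dKO cells, a ratio of 68.2 (23.1 to 333), with 129 of the dKO UMIs in 1 cell. Which of these sub-clusters held the dKO UMIs depended on the clustering. Under another numerical kernel the Clu+ Zfp36+ sub-cluster had 389 and the Cxcl5+ Il1rl1+ one 18, and without integration of the libraries they had 481 and 4. At sub-clustering resolution 0.2 no sub-cluster led by stress genes formed, and the Cxcl5+ Il1rl1+ one had 448, against 3 in Ctrl. Of all genes, 7.1% were called in the Clu+ Zfp36+ and 5.87% in the Cxcl5+ Il1rl1+ sub-cluster, where Cx3cr1 was also called higher at a ratio of 8.85 (5.70 to 14.4), with 110, 39, 26, 26 and 10 of 215 dKO UMIs in 5 cells. The G0s2+ Ifit3+ sub-cluster had Cxcl13 called lower at a ratio of 0.569 (0.383 to 0.833), while Cx3cr1 was called higher at 3.14 (2.08 to 4.85), 2 of 6 members against 7.68% of all genes, with 39, 25 and 11 of 85 dKO Cx3cr1 UMIs in 3 cells. Without the top cell of each library both fell under the floor, with 43 Cxcl13 and 56 Cx3cr1 UMIs at ratios of 0.324 and 5.61. Cx3cr1 had 14 and 3 UMIs in the Pi16+ Dpp4+ sub-cluster, a ratio of 0.162 (0.0298 to 0.580), and 12 and 1 in the Clu+ Zfp36+ one, a ratio of 0.0721 (0.00169 to 0.487), both lower in dKO and under the floor for a call. The direction of Cxcl13 in the G0s2+ Ifit3+ sub-cluster also depended on the clustering. Together with the small Unc13c+ Tenm2+ sub-cluster, its Cxcl13 ratio was 0.563 (0.379 to 0.823), but 1.68 (1.27 to 2.24) for the matching pair under another numerical kernel, and the sub-cluster with G0s2 and Ifit3 among its leading genes was at 1.999 (1.26 to 3.20) without integration. The Pi16+ Dpp4+ sub-cluster held 77.5% of the Cxcl13 UMIs of FAP-like cells in Ctrl and 42.9% in dKO.

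**Figure D3:**
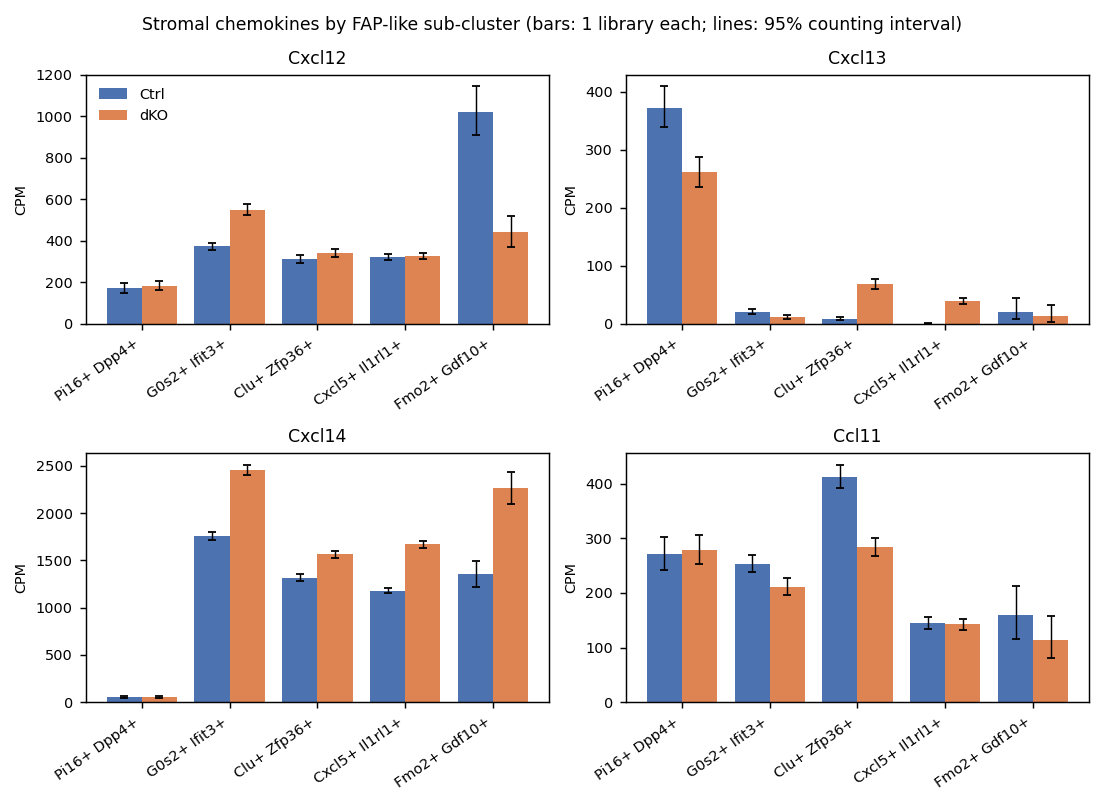
CPM of Cxcl12, Cxcl13, Cxcl14 and Ccl11 in 5 FAP-like sub-clusters, Ctrl beside dKO, with 95% counting intervals and a separate linear axis for each gene. The Pi16+ Dpp4+ bars were the highest for Cxcl13 (373 and 261) and the lowest for Cxcl14 (50.8 and 53.1) among these 5, and the Cxcl13 bars of the Clu+ Zfp36+ sub-cluster stood at 8.70 and 68.2.

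The doublet filter bore on Cxcl13. Of 1572 Ctrl Cxcl13 UMIs in cells with at least 500 genes, 989 (62.9%) were in the 325 cells removed as likely doublets, and only 7.38% of 1030 dKO UMIs were in the 250 removed there. The 3 removed Ctrl cells with most Cxcl13 held 758, 199 and 30 UMIs. Each of them also held Cr2 (5, 1 and 23 UMIs) and Madcam1 (2, 4 and 1), the complement receptor and the addressin that are known from lymphoid stroma, together with 196, 118 and 58 Clu UMIs. Other genes of such stroma were sparse or missing in some of them, with Tnfsf11 at 1, 5 and 0, Icam1 at 1, 0 and 0 and Ccl19 at 3, 0 and 1 UMIs. B cell transcripts Cd79a and Ms4a1 were at 0 in all 3, Ptprc was at 0, 0 and 6 UMIs, and Dcn at 6, 2 and 1. Among kept cells Madcam1 had 2 UMIs, both in Ctrl, while Cr2, which B cells also carry, had 81 Ctrl and 66 dKO UMIs in 49 and 40 cells, 4 and 3 of these cells FAP-like, and Tnfsf11 had 122 and 100 UMIs, 75 and 64 of them in FAP-like cells. These genes were chosen after the cells were seen. With the removed cells put back, Cxcl13 over all cells was at 34.6 and 30.6 CPM, against 14.3 and 31.3 without them. The direction over the whole library thus rested on the filter. The ratio within FAP-like cells was 1.73 with no doublets removed and 1.60 with the filter. With no doublets removed, FAP-like cells held 36.1% of the Ctrl Cxcl13 UMIs. Most Ctrl UMIs lay outside that class, so its ratio could not show the effect of the filter on them.

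Ccl11, the eotaxin, was at 262 (254 to 271) CPM in Ctrl and 214 (206 to 221) in dKO FAP-like cells, a ratio of 0.815 (0.777 to 0.854) that was not called. Its share of cells thinned to 2000 UMIs was 32.7% (29.8% to 35.7%) and 26.9% (24.3% to 29.6%), a difference of −5.82 percentage points (−9.79 to −1.84). B cell-like cells, which should lack it, held 1 and 0 UMIs. The Clu+ Zfp36+ sub-cluster had the same direction at 413 and 283 CPM, a ratio of 0.686 (0.634 to 0.742). The Unc13c+ Tenm2+ sub-cluster had the highest level, 1932 and 1196 CPM, in all 12 Ctrl cells and 8 of 10 dKO cells, and was called lower. Outside FAP-like cells, smooth muscle cell and pericyte-like cells had 42 and 19 UMIs, 43.3 and 88.2 CPM. Ccr3, its receptor, had 23 Ctrl and 12 dKO UMIs over all kept cells, under the floor for a call.

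Cxcl16, the transmembrane ligand of CXCR6, was counted mainly in MO/MP-like cells, at 314 (305 to 324) and 352 (339 to 364) CPM, a ratio of 1.12 (1.07 to 1.17). The sub-cluster led by Arl5c and Mmd, which had Cxcl16 among its leading genes, was highest at 719 and 844, and the Ly6c2+ Chil3+ monocyte-like sub-cluster lowest at 131 and 143. All 8 MO/MP-like sub-clusters held it, and no ratio in them passed 1.5-fold. Dendritic cell-like cells followed at 217 (189 to 249) and 305 (270.3 to 342), where neither of 2 members was called against 7.77% of all genes. T cell-like cells, taken as the class that should lack it, had 5 and 1 UMIs at a median depth of 3243 and 3089 UMIs per cell. FAP-like cells lay well below the myeloid classes and level between libraries, at 52.2 (48.6 to 56.1) and 53.6 (49.9 to 57.4).

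EC-like cells had more Cxcl16 in dKO, 130 UMIs in Ctrl and 80 in dKO, or 47.6 (39.8 to 56.6) and 91.0 (72.1 to 113) CPM, a ratio of 1.91 (1.43 to 2.54). It was 1 of 2 members called in EC-like cells, against 11.7% of all genes. The share of cells with a UMI was 18.7% and 26.5%, and 7.71% (5.30% to 10.8%) and 16.7% (10.98% to 23.8%) at 2000 UMIs per cell. Venous-like cells held most of it and were closest between libraries, 97.7 and 123 CPM with a ratio of 1.26 (0.841 to 1.85). Both capillary-like sub-clusters together had 49 UMIs in Ctrl and 24 in dKO, and arterial-like cells 4 and 14, all under the floor for a call. The 12 MO/MP markers summed to 128 CPM in Ctrl and 92.1 in dKO EC-like cells, with 0 and 1 of them at 0, and C1qa was at 18.7 and 20.5 CPM there, a ratio of 1.09 (0.602 to 1.91). On few UMIs, Csf1r had a ratio of 0.716 (0.131 to 2.61) and Adgre1 of 0.477 (0.0523 to 2.11). Their part in the Cxcl16 ratio was not tested.

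Among the receptors, Cxcr4 was found in every leukocyte class named here. It stood at 173 (166 to 180.1) and 162 (153 to 170.5) CPM in MO/MP-like cells, a ratio of 0.936 (0.875 to 1.00). It was highest in neutrophil-like cells at 256 and 306. Other leukocyte levels were 172 and 139 in B cell-like cells and 89.8 and 85.8 in dendritic cell-like cells. Neutrophil-like cells had 1 member with 100 UMIs, which was not called, where 22.6% of all genes were. The median log2 ratio of all genes was 0.12 in that class. The dKO intervals of MO/MP-like and B cell-like cells overlapped, 162 (153 to 170.5) and 139 (97.5 to 193). Cells taken as lacking it, tenocyte-like, had 1 and 0 UMIs at a median depth of 9521 and 9967 UMIs per cell.

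A small MO/MP-like sub-cluster led by Osm and Nr4a2 had the highest Cxcr4, 894 (719.8 to 1098) and 518 (404 to 653) CPM, in 90.5% of 21 Ctrl and 65.9% of 41 dKO cells, and was called lower at a ratio of 0.579 (0.418 to 0.798), where 22.3% of all genes were called. No sub-cluster led by these genes formed under another numerical kernel, without integration or at sub-clustering resolution 0.2. The Ear2+ Retnla+ sub-cluster was called higher, at 66.2 and 123 CPM, a ratio of 1.86 (1.42 to 2.44), where 9.91% of all genes were called. The other 6 sub-clusters were not called. The share of MO/MP-like cells with a UMI was 51.1% and 47.0% as counted but 23.8% and 25.9% at 2000 UMIs per cell, the median depth being 7722 and 6830.5 UMIs.

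Outside the leukocytes Cxcr4 was sparse. EC-like cells had 68 UMIs in 46 of 471 Ctrl cells and 2 in 2 of 181 dKO cells, 24.9 and 2.27 CPM and a ratio of 0.0912 (0.0108 to 0.343), under the floor for a call. In Ctrl, 18 and 38 of these UMIs were in the capillary-like sub-clusters. MuSC-like cells had 53 and 7 UMIs, 21.4 and 9.12 CPM, with a ratio of 0.426 (0.163 to 0.939), but the thinned shares of 6.03% and 6.67% were not distinguishable at this depth.

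T cell-like cells carried both receptors, and both were called, in opposite directions, against 9.31% of 1268 genes called either way. Cxcr4 had 60 UMIs in 117 Ctrl and 42 in 137 dKO cells, 137 (105 to 177) and 84.7 (61.1 to 115) CPM, a ratio of 0.618 (0.406 to 0.931). Cxcr6, the receptor of CXCL16 and a mark of tissue-resident and effector T cells, had 78 and 204 UMIs, 178 (141 to 223) and 412 (357 to 472) CPM, a ratio of 2.31 (1.77 to 3.03). It was detected in 23.9% of Ctrl and 39.4% of dKO cells, and in 23.7% (15.5% to 33.6%) and 34.8% (26.1% to 44.4%) at 2000 UMIs per cell, a thinned difference of 11.2 percentage points (−2.08 to 23.8) whose interval included 0. FAP-like cells had 0 Cxcr6 UMIs in either library, which allows a share of cells with a UMI of up to 0.278% and 0.263% and sets no limit on cells that express the gene.

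Among T cell-like cells with a Cd8a UMI, 4 of 18 Ctrl and 9 of 18 dKO cells had Cxcr6, and among those with a Cd4 UMI, 8 of 35 and 4 of 28. The intervals overlapped in both, and the difference between them was not tested. The class held both T and NK markers. Among cells with a Cd3d, Cd3e or Cd3g UMI, 20 of 86 Ctrl and 43 of 110 dKO cells had Cxcr6, or 184 and 469 CPM. The summed NK marker list (7 genes, 0 of them at 0) was at 1589 and 1717 CPM and the summed T cell list (8 genes, 0 at 0) at 2129 and 2449. Of single NK markers, Ncr1 went the other way from the sum, at a ratio of 0.336 (0.129 to 0.790). Klrb1c was at 0.776 (0.417 to 1.43) and Prf1 at 0.652 (0.327 to 1.28). Cells with an NK marker UMI had Cxcr6 in 3 of 28 Ctrl and 15 of 31 dKO cells, 10.7% (2.27% to 28.2%) and 48.4% (30.2% to 66.9%), and cells without one in 25 of 89 and 39 of 106. Markers of cycling cells (8 genes) were at 151 and 355 CPM, the summed B cell list (7 genes, 5 and 4 of them at 0) at 652 and 393, and the neutrophil list (9 genes, 3 and 5 at 0) at 70.9 and 585. Their part in the ratios of Cxcr6 and Cxcr4 was not tested.

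Cx3cr1 was a receptor of MO/MP-like cells and was lower there in dKO. It had 2068 UMIs in Ctrl and 896 in dKO, 159 (152 to 166) and 104 (97.1 to 111) CPM, a ratio of 0.653 (0.604 to 0.707). It was 1 of 5 members called in MO/MP-like cells, against 7.11% of 8687 genes called either way and 2.64% called lower. The median log2 ratio of the 5 was −0.30, against −0.00 over all genes. The 5 included Cxcl12, on 76 Ctrl and 41 dKO UMIs, and Cxcl14, on 198 and 101, both sparse in this class. The median therefore does not stand for the members mainly counted there. The share of cells with a UMI was 33.5% and 18.2%, and 17.4% (15.3% to 19.6%) and 9.58% (7.84% to 11.6%) at 2000 UMIs per cell, a difference of −7.80 percentage points (−10.6 to −4.95). Thinned FAP-like cells, taken as the class that should lack it, had one in 0.591% and 0.737%, and the cells of that class with many UMIs are described on their own. As a mean of each cell's own level the ratio was 0.815, not past 1.5-fold. Csf1r and Adgre1, general macrophage genes, had ratios of 0.869 and 1.05 in the same cells. The summed MO/MP list was at 15165 and 15486 CPM, the neutrophil list (9 genes, 0 at 0) at 203 and 93.9 and the erythroid list (5 genes, 2 and 1 at 0) at 8.14 and 29.5, and their part in the Cx3cr1 ratio was not tested.

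By sub-cluster, the share of thinned cells with Cx3cr1 was lower in dKO in 7 of 8, all but the small Osm+ Nr4a2+ one, where 1 Ctrl and 5 dKO UMIs were found. The level gave a less even picture. The Calhm6+ Ifit3+ sub-cluster, which also carried complement C1q, was at 333 and 141 CPM, a ratio of 0.421 (0.367 to 0.483), and the Arl5c+ Mmd+ sub-cluster at 174 and 71.4, a ratio of 0.410 (0.323 to 0.517). The Ly6c2+ Chil3+ sub-cluster was at 81.4 and 46.4, a ratio of 0.570 (0.418 to 0.769), and the Cd163+ Fcna+ sub-cluster at 105 and 54.5, a ratio of 0.520 (0.359 to 0.746). These 4 were called lower, although the Cd163+ Fcna+ ratio was 0.761 (0.605 to 0.956), short of a call, under another numerical kernel. In these 4, 11.6%, 10.3%, 10.4% and 11.2% of all genes were called in the same order.

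Another 3 sub-clusters were called higher by level while their share of thinned cells was lower, and the calls of the named pair depended on the clustering. The Spp1+ Gpnmb+ sub-cluster was at 76.4 and 140.2 CPM, and 1 dKO cell with 83 UMIs held 35.2% of its dKO total, the ratio being 1.33 (1.08 to 1.63), short of a call, without the top cell of each library. The Ear2+ Retnla+ sub-cluster was at 54.7 and 87.3, with 84 of 108 dKO UMIs in 1 cell, and without the top cell of each library its ratio was 0.772 (0.437 to 1.35), the other direction and under the floor for a call. The shallow Lars2+ Cited2+ sub-cluster was at 521 and 921, with 43 of 86 Ctrl and 38 of 76 dKO UMIs in 1 cell of each library. Under another numerical kernel, without integration and at sub-clustering resolution 0.2, the Ear2+ Retnla+ ratio of 1.59 became 1.31, 1.42 and 1.36, all short of 1.5-fold. The Spp1+ Gpnmb+ ratio of 1.84 became 0.950 under the other kernel, where a pair of sub-clusters carried the name, 1.06 at resolution 0.2 and 1.79 without integration. No sub-cluster led by Lars2 and Cited2 formed under these 3 settings. Of all genes, 8.81%, 9.91% and 22.6% were called in the Spp1+ Gpnmb+, Ear2+ Retnla+ and Lars2+ Cited2+ sub-clusters. Of the 5 dKO MO/MP-like cells with most Cx3cr1 (29 to 84 UMIs), 3 held 3, 0 and 1 UMIs of the 12 MO/MP markers, and 48 and 134 were found in the other 2. Cycling MO/MP-like cells were at 109 (94.3 to 125) and 42.9 (29.4 to 60.6) CPM, a ratio of 0.394 (0.262 to 0.575), 1 of 3 members called against 12.2% of all genes, and 13.7% and 9.30% of thinned cells had a UMI. That class differed in make-up between libraries: the summed neutrophil list (9 genes, 0 and 2 of them at 0) was at 18386 CPM in Ctrl and 314 in dKO, the MO/MP list (12 genes, 0 at 0) at 7573 and 5707, and the dendritic cell list (10 genes, 0 at 0) at 509 and 884. Their part in the Cx3cr1 ratio was not tested.

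A different picture was found outside the myeloid classes, where Cx3cr1 was rare, but some cells held many UMIs. FAP-like cells had 82 UMIs in 19 Ctrl cells and 304 in 16 dKO cells, so that the level was called higher at 5.67 and 20.03 CPM, a ratio of 3.53 (2.76 to 4.57), while the share of cells was 1.76% and 1.40%. Cycling FAP-like cells had 0 and 92 UMIs. In these classes 14 cells, 3 Ctrl and 11 dKO, held 10 to 110 Cx3cr1 UMIs each and 420 in all. The same cells held 1340 Dcn UMIs, at least 13 in each, and Pdgfra in 13 of 14. Of the 12 MO/MP markers, 6 (Csf1r, Lyz2, Ly6c2, Chil3, Mrc1 and Fcgr1) were at 0 in all 14 cells, and the list summed to 11 UMIs over them and at most 3 in a cell, against a median of 87 UMIs in an MO/MP-like cell. Without cells with 10 or more UMIs the FAP-like ratio was 0.481, the opposite direction, and at a clustering resolution of 0.4 it was 1.70.

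In MuSC-like cells the many-UMI cells were on the Ctrl side. Ctrl had 105 Cx3cr1 UMIs in 4 of 120 cells, 86 of them in 1 cell, and dKO had 0 in 30 cells. No fold is given, because 1 cell held most of the Ctrl UMIs. It was the only member with 100 UMIs in that class, where 21.1% of all genes were called. When cells removed as doublets were put back, the ratio was 1.84, the opposite direction.

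**Figure D4:**
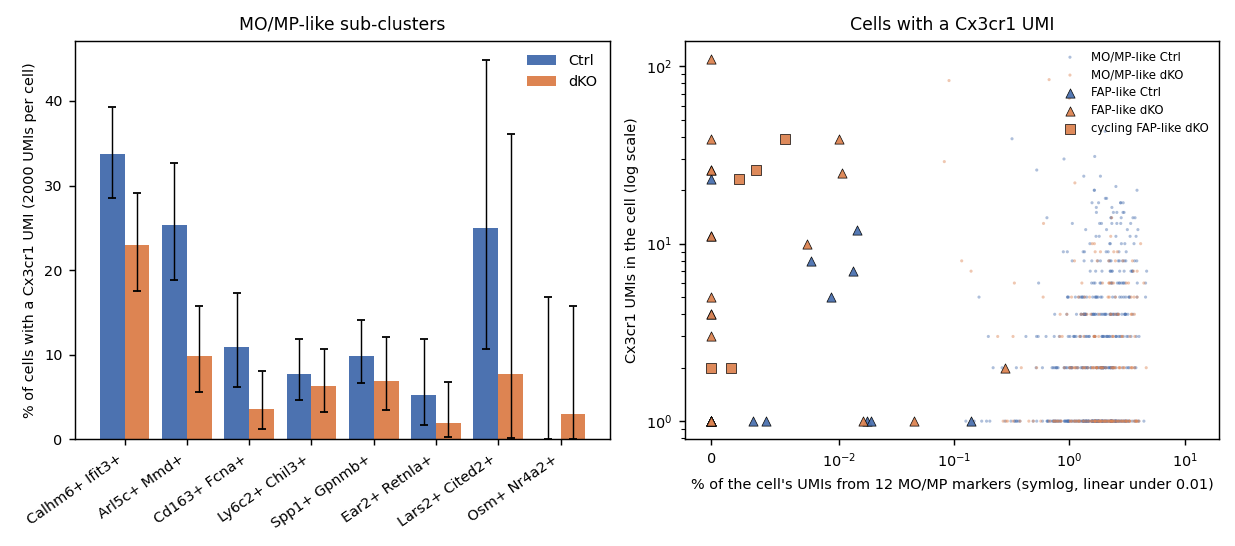
Left, share of cells with a Cx3cr1 UMI in the 8 MO/MP-like sub-clusters after thinning to 2000 UMIs per cell, Ctrl beside dKO, with 95% exact binomial intervals. Right, Cx3cr1 UMIs (log axis) of each cell that held one against the percent of its UMIs from 12 MO/MP markers (symlog axis); FAP-like cells (triangles) and cycling FAP-like cells (squares) reached 110 UMIs at marker shares near 0, while most MO/MP-like cells (dots) lay at higher marker shares.

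**Figure D5:**
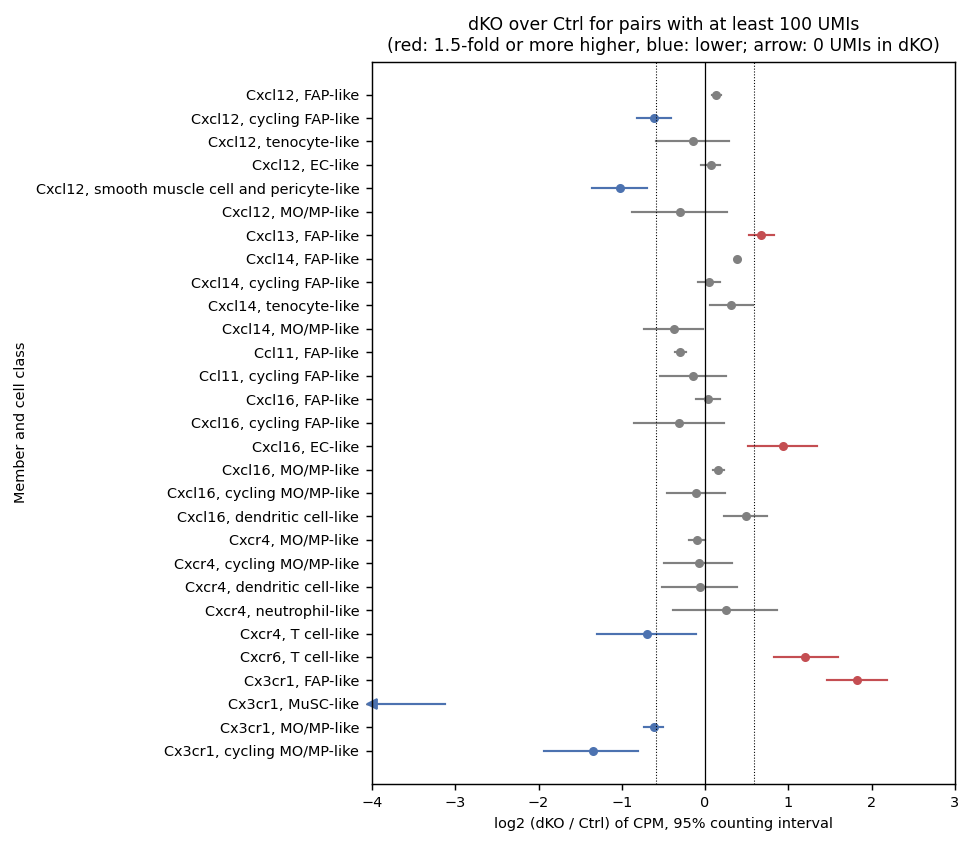
The log2 ratio of dKO over Ctrl (points) with 95% counting intervals (lines) for the 29 pairs of a member and a class with at least 100 UMIs; dotted lines mark 1.5-fold. The 4 red points are the pairs called higher and the 6 blue ones those called lower, and the arrow stands for 0 dKO UMIs of Cx3cr1 in MuSC-like cells.

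The partners of the members were then examined among 24 related genes. Ackr3, the scavenging receptor of CXCL12, was at 71.2 and 93.4 CPM in FAP-like cells, a ratio of 1.31 (1.21 to 1.42), and at 352 and 375 in the Pi16+ Dpp4+ sub-cluster, the one low in Cxcl12. In tenocyte-like cells Ackr3 was called higher, 39.3 and 68.8. It was also called higher in the venous-like and Cxcl5+ Il1rl1+ sub-clusters, where 12.3% and 5.87% of all genes were called. Cxcr5, the receptor of CXCL13, was found on B cell-like cells at 119 and 135 CPM from 43 and 35 UMIs. Cx3cl1, the ligand of CX3CR1, was called higher in EC-like cells, 76 and 44 UMIs or 27.9 and 50.03 CPM, a ratio of 1.80 (1.21 to 2.64), and stood at 16.3 and 16.9 in FAP-like cells. Within these it was called higher in the G0s2+ Ifit3+ sub-cluster, 13.9 and 24.2, and lower in the Cxcl5+ Il1rl1+ one, 23.7 and 14.9.

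Of the related genes with at least 100 UMIs, 1 of 9 was called higher and 1 lower in FAP-like cells, 2 of 5 higher in EC-like cells, and 3 of 3 higher in dendritic cell-like cells, where 5.78%, 11.7% and 7.77% of all genes were called. Another 1 of 2 was called higher in tenocyte-like cells, 1 of 6 lower in MO/MP-like cells and 1 of 3 lower in cycling FAP-like cells, where 6.02%, 7.11% and 15% of all genes were called. On the log2 scale their median ratio was 0.05 for the 9 in FAP-like cells, −0.21 for the 6 in MO/MP-like cells and 0.41 for the 5 in EC-like cells, against −0.06, −0.00 and −0.03 over all genes. Ccl19, a ligand of CCR7, was at 30.5 and 69.0 CPM in FAP-like cells, in 15.5% and 25.5% of cells, and was called higher in each of the 4 sub-clusters where it had 100 UMIs (G0s2+ Ifit3+, Clu+ Zfp36+, Cxcl5+ Il1rl1+ and Pi16+ Dpp4+), where 7.68%, 7.1%, 5.87% and 7.4% of all genes were called either way. Ccl20 was the gene called lower there, with 90.3% of its Ctrl UMIs in 1 cell. Ackr1, which binds many chemokines on venules, was called higher in EC-like cells at 275 and 621 CPM, 17.2% of the dKO UMIs lying in 1 cell. Over all kept cells 6 of 14 were called higher (Ackr3, Ccl19, Ccl20, Ccl22, Ccr7 and Ackr2), against 3.33% of all genes. Ccr7, a receptor that guides cells to lymph nodes, was at 566 and 529.9 CPM in B cell-like cells. In dendritic cell-like cells Ccr7 was at 267 and 689.9, Ccl22 at 78.6 and 314 and the sheddase Adam17 at 55.1 and 84.8. In the same class the summed dendritic cell list (10 genes, 0 at 0) was at 2431 and 1967 CPM, the mast cell list (6 genes, 4 and 1 at 0) at 42.9 and 428, and the neutrophil list (9 genes, 2 and 6 at 0) at 163 and 3.22, and their part in these ratios was not tested. Ccl22 was called lower in MO/MP-like cells, 14.3 and 4.86, and Ccl19 in cycling FAP-like cells, where 94.3% of its Ctrl UMIs lay in 1 cell. The sheddases of CXCL16 and CX3CL1 had ratios in MO/MP-like cells of 0.805 (0.732 to 0.885) for Adam10 and 0.928 (0.864 to 0.996) for Adam17.

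For each member, the genes with the most similar pattern were sought among 11452 genes over 24 points, each a class of 1 library with at least 20 cells. These points share libraries and differ in depth, so Pearson's r on log2 levels, given in parentheses, is a description. Cxcl12 was closest to Tcf7l1 (0.977), Pcdh19 (0.973) and Osmr (0.972), and Cxcl14 to Insyn1 (0.982), Pdgfra (0.980) and Col14a1 (0.977). Cxcl13 was closest to Inmt (0.983), Col6a6 (0.950) and E330013P04Rik (0.949), and Ccl11 to Lgi2 (0.978), Pla1a (0.970) and Cd248 (0.954). Cxcl13 was almost confined to the FAP-like points, so its r rested mainly on these and does not show shared sub-clusters. Cxcl16 was closest to Hfe (0.948), Lgmn (0.880) and Gusb (0.873). Among the receptors, Cxcr4 was closest to the leukocyte genes Gmfg (0.964), Cd53 (0.962) and Lcp1 (0.959), and the genes near Cxcr6 included the T cell genes Skap1 (0.979) and Il2rb (0.979). No gene came as close to Cx3cr1, whose nearest were Tmem106a (0.820), Dppa3 (0.807) and Npc2 (0.807). Among the members themselves, Cxcl12 and Cxcr4 ran opposite over the same points (−0.831).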

How the data were processed

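Live mononuclear cells from muscle of 1 pooled group of mdx mice per genotype were profiled by 10x Genomics single cell RNA-seq, with 1 library per group (Ctrl and dKO). The submitters' processing notes name Cell Ranger 7.0.0, Seurat 4.3.0, Cufflinks and the mm10 build, whereas the header of the deposited matrices gives software version 3.0.2. The authors deposited raw counts of UMIs per gene and cell, 45556596 in 4527 Ctrl cells and 33815155 in 3483 dKO cells, over 24984 gene symbols with no mitochondrial genes. The deposited libraries shared 7 barcodes.

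Cells with at least 500 genes were kept (4335 and 3329), and the 7.5% of each library with the highest Scrublet score (scanpy 1.11.5) were left out as likely doublets (325 and 250), because Scrublet's own threshold called only 7 and 14. Libraries were integrated by anchors and clustered in Seurat 5.3.0 (R 4.3.3) on 2000 variable genes, 40 dimensions and resolution 0.8. FAP-like, EC-like and MO/MP-like cells were sub-clustered on 20 dimensions at resolution 0.4. The 8 members and 24 related chemokine genes were left out of the variable genes. Clusters were named when at least 3 fixed markers were enriched, so class sizes rest on rebuilt names and may differ from those of the study. Several sub-clusters are labelled by leading genes instead. Clusters varied slightly with the numerical library's kernel, and 1 kernel was fixed. The study's other stated filter, 200 genes and 1000 UMIs, would keep 4295 and 3306 cells before doublet removal.

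UMIs were summed over cells of a class and library and scaled to CPM, the count per 1000000 UMIs of that sum. Intervals are at the 95% level: exact Poisson for levels, exact conditional binomial for ratios, and exact Clopper-Pearson for shares of cells. They cover counting error only, and cells are not replicates, so no test was made between groups. Shares of cells were compared after thinning each cell to 2000 UMIs, leaving out shallower cells. A count of 0 was taken to allow 3 counts. Similarity was Pearson's r of log2(UMIs CPM + 10) over classes of at least 20 cells in each library, among genes with at least 200 UMIs. Every member was described in every class. Of the related genes, Ackr3, Cxcr5, Ccr3 and Cx3cl1 were always named, others when past 1.5-fold with at least 100 UMIs or at 500 CPM in a class, and the 3 most similar genes of each member were named, except 1 for Cxcr6 that is not reported here. The members and lists were chosen with earlier results of these data known.

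Gene bounds and promoters came from RefSeq (GRCm38.p6), with 8 of 8 members matched for position and 6 for a promoter (not Cxcl16 and Ccl11). Python 3.11.15, numpy 2.4.6, scipy 1.17.1, pandas 2.3.3 and matplotlib 3.10.9 were used. The interval and call steps were tested on simulated data. Alternatives changed the doublet and cell filters, scaling, summing, integration, resolution, variable genes and the UMI floor. Leaving out cells with 10 or more UMIs of a gene, another numerical kernel, and leaving out the top cell of each library in sub-clusters were added after the data were seen.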

Additional observations from a re-analysis of the deposited data

Results flagged for a closer look

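The level of Cx3cr1 differed between dKO and Ctrl in opposite directions in different cell classes. Its dKO to Ctrl ratio was 3.53 in FAP-like cells but 0.653 in MO/MP-like cells and 0.394 in cycling MO/MP-like cells, and MuSC-like cells had 105 UMIs in Ctrl and 0 in dKO, for which no fold is given. The cycling MO/MP-like class differed in make-up between libraries, with the summed neutrophil list at 18386 CPM in Ctrl and 314 in dKO and the MO/MP list at 7573 and 5707. With 1 library per group, the difference between these ratios was not tested. The FAP-like value rested on 304 dKO UMIs, and it was 0.481 without cells with 10 or more Cx3cr1 UMIs. Of the 105 Ctrl UMIs in MuSC-like cells, 86 were in 1 cell.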

How the results depend on the processing

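Ratios of 29 pairs of a member and a class were recomputed under 11 alternatives, and of 307 values 269 kept their place, 36 moved beyond the counting interval of the reported value and 2 reversed. Reversed means that a ratio past 1.5-fold came to lie on the other side of 1. Smaller ratios that crossed 1 are among those that moved or kept their place. No paired analysis was possible because each group had 1 library, and for the same reason no replicate could be left out. Cycling FAP-like cells formed no class of their own with the 200-gene filter, with no doublets removed or without integration, where 25 of the 29 ratios could be given. The ratios that reversed were those of Cx3cr1, at 1.84 in MuSC-like cells with no doublets removed and at 0.481 in FAP-like cells without cells with 10 or more UMIs of the gene. The causes were not tested.

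With no doublets removed the Cxcl12 ratio in EC-like cells was 0.874, and 7 pairs in place of 4 were called higher. With the 200-gene filter Cxcl14 in FAP-like cells was at 1.28. Scaling to the median ratio put Cxcl12 and Cxcl14 in FAP-like cells at 1.15 and 1.37. As a mean of each cell's own level the ratio was 0.815 for Cx3cr1 in MO/MP-like cells, 1.27 for Cxcl12 in EC-like cells and 1.76 for Cxcr6 in T cell-like cells, and in FAP-like cells 1.13 for Cxcl13, 1.23 for Cxcl14 and 0.772 for Ccl11. Cxcl12 in FAP-like cells was at 1.06 without integration, at 1.15 at resolution 0.4 and at 1.16 with the chemokine genes kept among the variable genes, where Cxcl14 was at 1.28. Without cells with 10 or more UMIs, Cxcr4 in MO/MP-like cells was at 1.01, Cxcl12, Cxcl14 and Ccl11 in FAP-like cells at 0.945, 1.04 and 0.870, and 3 pairs in place of 6 were called lower. That setting selects cells by the measured value, and the FAP-like cells it left out held 92.4% of Ctrl and 94.4% of dKO Cxcl14 UMIs. Over the alternatives 3 to 7 pairs were called higher and 3 to 6 lower, apart from a floor of 30 UMIs, which gave 6 and 9. Under another numerical kernel all 29 ratios stayed within that limit.

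Shares of a member's UMIs held by a class moved with clustering. With no doublets removed, FAP-like cells held 58.7% of Ctrl and 83.0% of dKO Cxcl12 UMIs, 36.1% of Ctrl Cxcl13, 96.2% and 98.5% of Cxcl14, and 93.0% and 94.99% of Ccl11, and MO/MP-like cells held 69.5% and 64.9% of Cxcl16, 73.4% and 77.5% of Cxcr4, and 80.0% and 62.4% of Cx3cr1. Without integration, FAP-like cells held 61.1% and 85.1% of Cxcl12, 97.3% and 98.6% of Cxcl14, and 96.9% and 98.8% of Ccl11, EC-like cells held 33.3% of Ctrl Cxcl12, and MO/MP-like cells held 68.1% and 63.0% of Cxcl16, 74.8% and 74.1% of Cxcr4, and 79.3% and 58.5% of Cx3cr1. The Ctrl level of Cxcl13 in the Pi16+ Dpp4+ sub-cluster was then 76.0-fold above the other FAP-like cells. Unthinned, the share of MO/MP-like cells with a UMI differed by −4.08 percentage points for Cxcr4 and −15.3 for Cx3cr1. Of 128 pairs, 99 lay under the floor of 100 UMIs and were given no call. Without the top cell of each library, a setting added for sub-clusters after the data were seen, the Cx3cr1 ratio of the Ear2+ Retnla+ sub-cluster reversed to 0.772.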
